A study of Mus musculus with 12 samples.

Results

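The genes described here are ligands and transcriptional readouts of Wnt signalling in mouse cartilage: the ligand genes Wnt5a, Wnt5b and Wnt11, and the pathway target genes Lef1, Tcf7, Axin2 and Nkd1. They were taken by symbol from a fixed list of 8 names, of which 7 had a row among the 14712 genes of the table; Nkd2 was not analysed here. Bulk RNA sequencing was run on articular cartilage and growth plate cut by laser from mouse knees at an age of 3 months, with 3 mutant and 3 control libraries per tissue, 12 in all. The study asks what adult chondrocytes express after loss of the transcription factor Sox9, alone or together with its relative Sox8.

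The mutant groups were Sox9fl/fl AcanCreERT2/+ at day 7, Sox9fl/fl AcanCreERT2/+ at day 14 and Sox8fl/fl Sox9fl/fl AcanCreERT2/+ at day 14. Their controls carried the same floxed alleles without Cre: Sox9fl/fl at day 7, Sox9fl/fl at day 14 and Sox8fl/fl Sox9fl/fl at day 14. The column headers add a heterozygous reporter allele, R26tdT/+, to the Sox9 mutants and controls and to neither Sox8 Sox9 group. The Cre is inducible and driven from the aggrecan locus, so it acts in cells that make aggrecan, which are mostly chondrocytes, and 1 aggrecan copy carries the insertion in mutants only. The labels do not state what the days were counted from. A single library stands for each combination of alleles, day and tissue, so the mutant libraries of a tissue come from 3 conditions, each with a control of the same floxed alleles and day. Values below are listed by set in the order Sox9 at day 7, Sox9 at day 14 and Sox8 Sox9 at day 14.

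Wnt proteins are secreted lipid-modified signals that bind Frizzled receptors. In the canonical branch they stabilise beta-catenin, which then works with the DNA-binding factors of the TCF/LEF family to switch on target genes; in the other branches they steer cell shape and polarity without beta-catenin. Wnt5a, Wnt5b and Wnt11 are mostly assigned to the second kind, and Wnt5a and Wnt5b are known from the growth plate, where they influence how fast chondrocytes mature. Axin2 and Nkd1 are induced by the canonical branch and dampen it, while Lef1 and Tcf7 encode TCF/LEF factors and are themselves target genes.

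Values were the authors' normalised RPKM, a read count per kilobase of transcript scaled to the library, in which the lowest listed value is 1; read depth is unknown. Their means over the 12 libraries lay between 1.71 for Wnt5a and 8.40 for Tcf7. Tcf7, Wnt5b and Lef1 had higher means than 64.6, 63.7 and 55.0 percent of all listed genes, and Wnt11, Axin2, Nkd1 and Wnt5a than 43.7, 27.4, 16.3 and 12.5 percent. Tissue identity followed the labels, with the lubricin gene Prg4 at 9137 to 32446 in articular libraries and 3.61 to 111 in growth plate libraries. The summed level of 8 chondrocyte markers was lower in mutants of both tissues, at 1056 to 4736 in growth plate mutants against 24858 to 34648 in growth plate controls, and at 11141 to 22618 in articular mutants against 31869 to 36384 in articular controls. In growth plate 7 of the 8 were called lower, beside 2.82 percent of all genes. In articular cartilage 1 was, Col10a1, beside 0.197 percent of all genes. The articular sum was mostly Prg4, at 9137 to 20422 in mutants against 24374 to 32446 in controls. Comp hardly differed there, at 1189 ± 114 in mutants and 1146 ± 165 in controls (SD, n = 3 each). The 4 Sox8 Sox9 libraries had Xist at 61.2 to 76.5 and the Y-linked Ddx3y at 1, while the other 8 had Xist at 1 and Ddx3y at 11.8 to 22.0, so genotype and sex cannot be told apart between sets. The library labelled articular Sox8 Sox9 mutant had more Sox9 than its control, 282 against 213, which goes against its label. Sox8 (8.66 against 15.3), Acan (347 against 1038) and Col10a1 (177 against 1284) were lower in it. In the articular Sox9 mutants Sox9 was lower, at 304 against 408 at day 7 and 309 against 349 at day 14. In growth plate Sox9 was 236, 148 and 35.97 in mutants, against 314, 335 and 308 in controls. All articular mutant comparisons thus rest on libraries that kept most of the Sox9 RNA level of their control or exceeded it. Calls that the articular Sox8 Sox9 pair decides are also given without it.

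**Figure D1:**
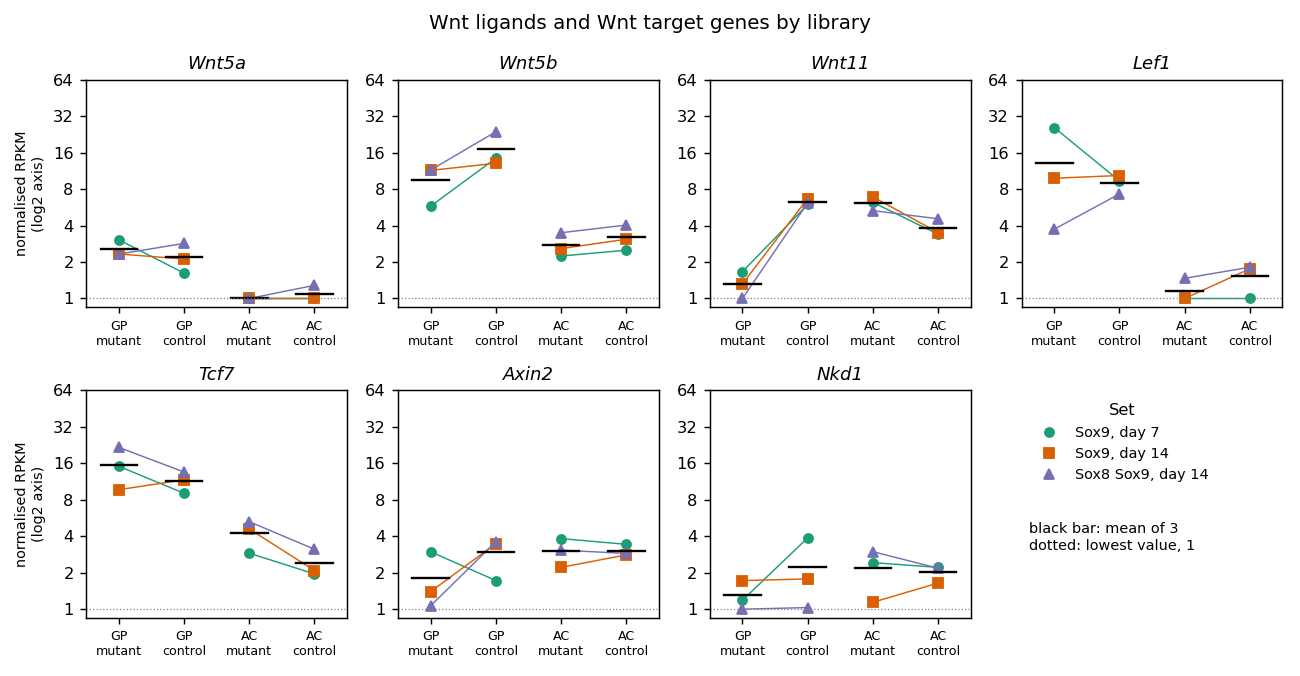
Normalised RPKM (log2 axis) of the 7 genes in each of the 12 libraries, in growth plate (GP) and articular cartilage (AC); symbols mark the set, lines join a mutant to its matched control, and black bars are means of 3. Wnt5b, Lef1 and Tcf7 are higher in growth plate than in articular cartilage in mutants and in controls, and Wnt11 lies between 1 and 1.67 in growth plate mutants against 5.97 to 6.69 in growth plate controls.

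Wnt11 fell in growth plate mutants to near the lowest listed value, while in articular cartilage its mutant values lay above the control values without passing the test. Wnt11 (chromosome 7, 98835112 to 98855195, plus strand, mm10) was 1.67, 1.32 and 1 in growth plate mutants, against 5.97, 6.69 and 6.15 in growth plate controls. The 2 groups did not overlap, and the control libraries lay close together. The means were 1.33 ± 0.33 in mutants and 6.27 ± 0.37 in controls (SD, n = 3 each). On the log2 scale the fall was −1.65 ± 0.19 (SE; limma with Benjamini-Hochberg adjusted p = 0.00135). All log2 fold changes here are of the value plus 1, which understates the change of low genes such as this one. The fall was called in every fit without 1 library and missed the threshold only when the 6 growth plate libraries were fitted alone (limma adjusted p = 0.119; 0.000538 to 0.119 over all alternatives). The chondrocyte marker sum was lower in the same libraries, and the part of that in the falls of Wnt11 and Wnt5b was not tested.

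In articular cartilage Wnt11 was 6.22, 6.91 and 5.32 in mutants, against 3.40, 3.50 and 4.55 in controls. These groups did not overlap either, but the difference of 0.57 ± 0.19 did not pass over all genes (limma adjusted p = 0.275). It was smallest, at 0.19 on the log2 scale, in the Sox8 Sox9 pair, whose mutant library goes against its label in Sox9 and not in Sox8, beside 0.72 and 0.81 in the Sox9 pairs of day 7 and day 14. The mutant effect in growth plate minus that in articular cartilage was −2.22 ± 0.27 (limma adjusted p = 0.0280), with all 3 growth plate pairs lower and all 3 articular pairs higher in mutants. Of all genes, 0.184 percent passed this test of the tissue difference, and Wnt11 was the 1 of the 7 to do so. The difference kept its size without any 1 library, between −2.34 and −2.14, while its adjusted p then lay between 0.0882 and 0.147; without the articular Sox8 Sox9 pair it was −2.32 (adjusted p = 0.267). The adjusted p ranged from 0.00990 to 0.274 over all alternatives.

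The order of the tissues for Wnt11 differed between genotypes: among mutants all growth plate libraries lay below all articular ones, and among controls all lay above. In mutants the difference of growth plate from articular cartilage was −1.62 ± 0.19 (limma adjusted p = 0.00106). In controls it was 0.60 ± 0.19, short of the threshold (limma adjusted p = 0.0761; 0.0309 to 0.294 over all alternatives, with both scalings below 0.05).

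The sequence before the outermost start of Wnt11 is shown because this gene had the largest fitted change among the 7 between mutants and controls. RefSeq promoter windows on GRCm38.p6 were found for 7 of the 8 names, Wnt5a being the exception, with several alternative starts for some. Each strand of the 250 bases before a start was searched for CTTTGA, a core of TCF/LEF sites, for CTTTGT, which fits TCF/LEF and SOX factors alike since both bind through an HMG box, and for CATTGT, a SOX core; no 2 of them can match the same 6 bases. Over all 32851 such windows, 13.8 percent held CTTTGA, 16.5 percent CTTTGT and 10.7 percent CATTGT, and 35.0 percent held at least 1 of them. Of the 14 windows of the named genes 3 held one, and those of Axin2, Tcf7, Nkd1 and Nkd2 held none. Wnt11 has an outermost and an inner annotated start, and which of them the reads came from is unknown. The inner window (chr7:98838595-98838844) holds none of the 3 motifs. The outermost holds 1 match, to CTTTGA on the minus strand, which reads TCAAAG here. It lies 50 to 45 bases before that start, and capitals mark it (chr7:98834862-98835111, plus strand).
Wnt11: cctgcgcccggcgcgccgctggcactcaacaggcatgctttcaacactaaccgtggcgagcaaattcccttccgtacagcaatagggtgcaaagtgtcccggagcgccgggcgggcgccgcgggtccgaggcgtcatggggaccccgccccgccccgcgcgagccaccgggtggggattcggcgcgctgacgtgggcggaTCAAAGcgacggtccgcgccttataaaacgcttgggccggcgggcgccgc
A match of 6 letters describes this window and is not evidence of binding.

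Wnt5b also fell in growth plate mutants, by less than Wnt11, and was higher in growth plate than in articular cartilage in both genotypes. Wnt5b (chromosome 6, 119432531 to 119544347, minus strand) was 5.79, 11.4 and 11.5 in growth plate mutants, against 14.4, 13.1 and 23.8 in growth plate controls. The groups did not overlap, though the Sox9 mutant of day 14 lay just under its control. Means were 9.57 ± 3.27 in mutants and 17.1 ± 5.85 in controls (SD, n = 3 each), with a change of −0.78 ± 0.20 (limma adjusted p = 0.0354). The call rested on the fit: the adjusted p was 0.0710 with a block for each matched pair, 0.132 with no set block, 0.0739 without the articular Sox8 Sox9 pair and 0.259 in the Sox9 sets alone, and 8 of 12 fits without 1 library missed the threshold (0.0140 to 0.259 over all alternatives). Relative to the median of all genes, which lay 0.20 above 0 in growth plate, the fall was larger, at −0.99 under quantile normalisation (adjusted p = 0.0289) and also by median ratios (0.0286).

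In articular cartilage Wnt5b was 2.24, 2.58 and 3.49 in mutants and 2.50, 3.08 and 4.04 in controls. Each mutant lay under its own control while the groups overlapped, and the difference of −0.16 ± 0.20 did not pass (limma adjusted p = 0.817). The mutant effects in the 2 tissues differed by −0.63 ± 0.29, which also did not pass (adjusted p = 0.484). Growth plate exceeded articular cartilage by 1.45 ± 0.20 in mutants (limma adjusted p = 0.00249) and by 2.07 ± 0.20 in controls (adjusted p = 0.000343). All 6 growth plate libraries lay above all 6 articular ones.

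Windows before 2 of the 3 annotated Wnt5b starts are shown, the outermost and the innermost (chr6:119544348-119544597 and chr6:119449387-119449636, minus strand, written in the direction of the gene). The outermost is rich in C and G, 75.2 percent against a median of 52.4 percent over all windows, and holds none of the 3 motifs; the innermost holds 1 CTTTGA, in capitals, 71 to 66 bases before its start. The table does not tell which start the reads came from.
Wnt5b outermost: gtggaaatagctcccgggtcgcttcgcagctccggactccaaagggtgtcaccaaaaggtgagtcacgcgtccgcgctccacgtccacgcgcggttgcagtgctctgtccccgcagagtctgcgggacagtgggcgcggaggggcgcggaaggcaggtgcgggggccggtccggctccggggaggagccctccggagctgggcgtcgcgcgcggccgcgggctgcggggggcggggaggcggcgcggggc
Wnt5b innermost: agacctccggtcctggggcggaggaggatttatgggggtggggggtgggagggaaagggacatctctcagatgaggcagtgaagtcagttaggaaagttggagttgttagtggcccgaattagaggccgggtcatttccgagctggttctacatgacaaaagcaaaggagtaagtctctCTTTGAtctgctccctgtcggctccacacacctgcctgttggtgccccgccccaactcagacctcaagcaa

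Wnt5a was the lowest of the 7 and was read almost only in growth plate. Wnt5a (chromosome 14, 28504750 to 28527448, plus strand) stood at 3.05, 2.33 and 2.33 in growth plate mutants, against 1.62, 2.12 and 2.85 in growth plate controls. In articular cartilage 3 of 3 mutants and 2 of 3 controls were at the lowest value, 1, and the remaining control, of the Sox8 Sox9 set, was at 1.28. The tissue groups did not overlap, and growth plate exceeded articular cartilage by 0.83 ± 0.21 in mutants (limma adjusted p = 0.0408) and by 0.59 ± 0.21 in controls (adjusted p = 0.111). The mutant call was lost in 12 of 12 fits without 1 library (0.0601 to 0.159) and without the articular Sox8 Sox9 pair (0.152; 0.0215 to 0.159 over all alternatives), and the difference in controls passed after quantile normalisation (0.0303; 0.0303 to 0.355 over all alternatives). Between mutants and controls Wnt5a differed by 0.17 ± 0.21 in growth plate and by −0.06 ± 0.21 in articular cartilage (limma adjusted p = 0.656 and 0.954). At values this near the lowest listed one, a difference within articular cartilage was not detectable.

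**Figure D2:**
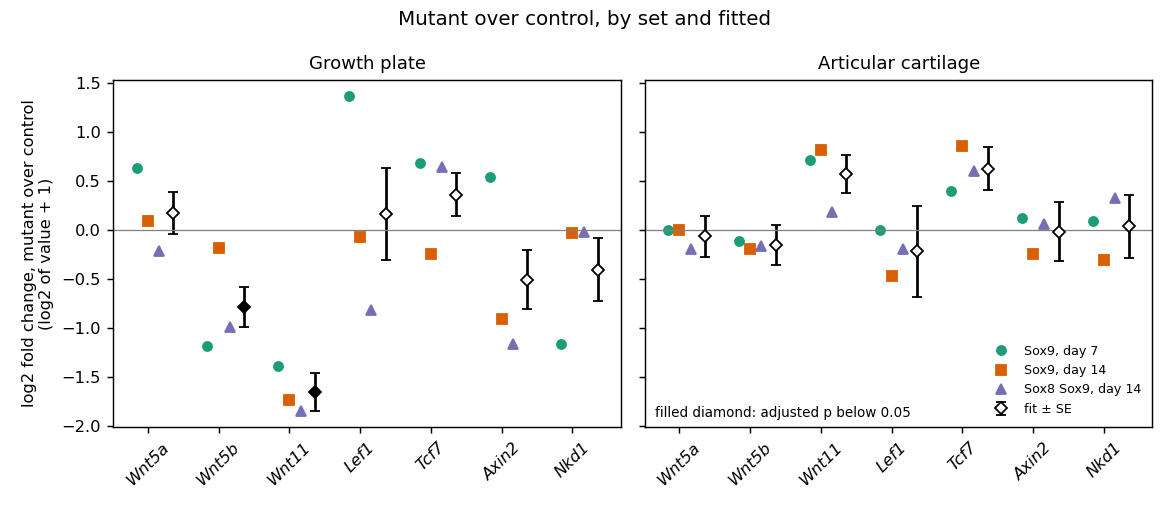
Log2 fold change of mutant over matched control (value plus 1) for each gene, with 1 coloured symbol per set and a diamond for the limma fit with its standard error, in growth plate (left) and articular cartilage (right). Filled diamonds mark an adjusted p below 0.05: Wnt5b (−0.78) and Wnt11 (−1.65) in growth plate; the sets disagree in sign for Lef1, Tcf7, Axin2 and Wnt5a in growth plate.

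Lef1 was a growth plate gene in mutants and controls alike, and its mutant libraries differed widely from set to set. Lef1 (chromosome 3, 131110471 to 131224356, plus strand) was 25.8, 9.84 and 3.73 in growth plate mutants, against 9.36, 10.4 and 7.30 in controls. The day 7 mutant held the highest value of all libraries and the Sox8 Sox9 mutant the lowest of growth plate, so the controls fell inside the range of the mutants. Means were 13.1 ± 11.4 in mutants and 9.01 ± 1.56 in controls (SD, n = 3 each), and the change of 0.16 ± 0.47 did not pass (limma adjusted p = 0.886); it was −0.53 without the day 7 mutant library and −0.03 after either scaling. In articular cartilage Lef1 was at 1, 1 and 1.47 in mutants and at 1, 1.76 and 1.81 in controls.

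Growth plate exceeded articular cartilage for Lef1 by 2.37 ± 0.45 in mutants (limma adjusted p = 0.0130) and by 1.99 ± 0.45 in controls (adjusted p = 0.0236). The tissues did not overlap in either genotype. Without 1 library the adjusted p reached 0.0849 in mutants and 0.148 in controls, and 4 and 7 of the 12 fits missed the threshold; the direction was the same in all of them (0.00374 to 0.0849 and 0.00502 to 0.148 over all alternatives). The mutant effect did not differ detectably between tissues (0.38 ± 0.64, adjusted p = 0.866).

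Lef1 has 4 annotated starts, and 2 windows are shown, the outermost and one far inside the gene (chr3:131110047-131110296 and chr3:131156044-131156293, plus strand). The outermost holds none of the 3 motifs. The inner window was chosen because it holds 4 matches, in capitals: 2 to CTTTGA and 1 each to CTTTGT and CATTGT, between 180 and 115 bases before that start.
Lef1 outermost: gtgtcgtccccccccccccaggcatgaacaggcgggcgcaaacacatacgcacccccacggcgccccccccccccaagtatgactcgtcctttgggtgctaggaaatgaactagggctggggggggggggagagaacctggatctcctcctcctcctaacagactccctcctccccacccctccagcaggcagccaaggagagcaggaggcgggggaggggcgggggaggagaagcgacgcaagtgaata
Lef1 inner: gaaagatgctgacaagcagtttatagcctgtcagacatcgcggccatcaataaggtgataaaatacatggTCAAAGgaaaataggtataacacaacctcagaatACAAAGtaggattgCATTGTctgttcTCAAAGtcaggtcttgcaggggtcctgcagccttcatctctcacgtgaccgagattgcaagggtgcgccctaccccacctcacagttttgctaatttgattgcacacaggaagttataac

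Tcf7, which encodes the second TCF/LEF factor here, was likewise higher in growth plate than in articular cartilage in mutants and in controls. Tcf7 (chromosome 11, 52252371 to 52283014, minus strand) was 15.1, 9.70 and 21.7 in growth plate mutants, against 9.06, 11.7 and 13.6 in controls. The groups overlapped and the day 14 Sox9 pair went the other way, and the change of 0.36 ± 0.22 did not pass (limma adjusted p = 0.331); without the day 14 Sox9 mutant library it was 0.64 and passed (adjusted p = 0.0383; 0.0383 to 0.759 over all alternatives). In articular cartilage Tcf7 was 2.90, 4.59 and 5.28 in mutants, against 1.95, 2.08 and 3.12 in controls. Each articular mutant exceeded its own control, with 1 mutant inside the control range, and the difference of 0.62 ± 0.22 did not pass over all genes (limma adjusted p = 0.295).

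Tcf7 was higher in growth plate than in articular cartilage by 1.61 ± 0.23 in mutants (limma adjusted p = 0.00277) and by 1.88 ± 0.23 in controls (adjusted p = 0.00119). The lowest growth plate library, at 9.06, lay above the highest articular one, at 5.28. The mutant value no longer passed without the articular Sox8 Sox9 pair (1.49, adjusted p = 0.0543) or in the Sox9 sets alone (0.0587; 0.000865 to 0.0587 over all alternatives). The mutant effects of the 2 tissues differed by −0.26 ± 0.33 (adjusted p = 0.804).

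Lef1 and Tcf7 are also made by lymphocytes, and growth plate borders bone and marrow. Of 7 T cell markers 5 were listed, and Cd2 was at 1 in all 6 growth plate libraries. Cd3d was at 1.64, 5.90 and 1 in growth plate mutants and at 1 in growth plate controls. Cd5 was 2.71, 1 and 3.40 in these mutants, against 1.05, 1 and 1.41 in controls. Cd28 (1.13, 1.07 and 1 against 1.31, 2.69 and 1) and Thy1 (1, 1 and 1.37 against 1.52, 5.49 and 5.86) went the other way. The summed level of the 5, which mixes these directions, was 7.49 to 9.96 in mutants and 5.87 to 11.2 in controls. B cell markers (4 of 7 listed) summed to 54.7 to 158 in growth plate mutants against 4.42 to 15.3 in controls, and osteoblast and osteocyte markers (10 of 10) to 17471 to 21386 against 5803 to 11114. In mutants most of the latter sum was Col1a1, at 12168 to 16508, against 2171 to 6678 in controls. Of these 10 markers 3 were called higher, Dmp1, Mepe and Col1a1, and 1 lower, Alpl. Over all genes 7.92 percent were higher and 2.82 percent lower. In articular cartilage the fibroblast and tendon sum (8 of 9 listed) was 2213 to 4446 in mutants against 1618 to 1836 in controls. None of the 8 was called there, beside 0.353 percent of all genes, and 5 had an unadjusted limma p under 0.05. In bulk tissue fewer cells of a type and less RNA per cell cannot be told apart, and the part of these other cells in the values above was not tested.

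Axin2 and Nkd1, the feedback inhibitors, showed no called change in any comparison. Axin2 (chromosome 11, 108920349 to 108950783, plus strand), a scaffold of the complex that destroys beta-catenin, was 2.98, 1.40 and 1.07 in growth plate mutants, against 1.72, 3.48 and 3.61 in controls. Both day 14 mutants lay below all controls and the day 7 mutant lay among them, and the change of −0.50 ± 0.30 did not pass (limma adjusted p = 0.318). In articular cartilage Axin2 was 3.83, 2.21 and 3.07 in mutants and 3.43, 2.81 and 2.89 in controls, a difference of −0.02 ± 0.30 (adjusted p near 1). It did not pass between tissues, at −0.56 ± 0.26 in mutants (limma adjusted p = 0.244) and −0.07 ± 0.26 in controls (adjusted p = 0.924), and the control value turned to 0.09 after quantile normalisation.

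Nkd1 (chromosome 8, 88521354 to 88594884, plus strand), which binds Dishevelled, was 1.19, 1.72 and 1 in growth plate mutants, against 3.88, 1.78 and 1.03 in controls. Most of the mean difference came from the day 7 pair, where the control was the highest of the 12 libraries, and the change of −0.40 ± 0.32 did not pass (limma adjusted p = 0.456). Articular values were 2.42, 1.14 and 2.98 in mutants and 2.21, 1.64 and 2.18 in controls. The groups overlapped in both tissues and between tissues.

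**Figure D3:**
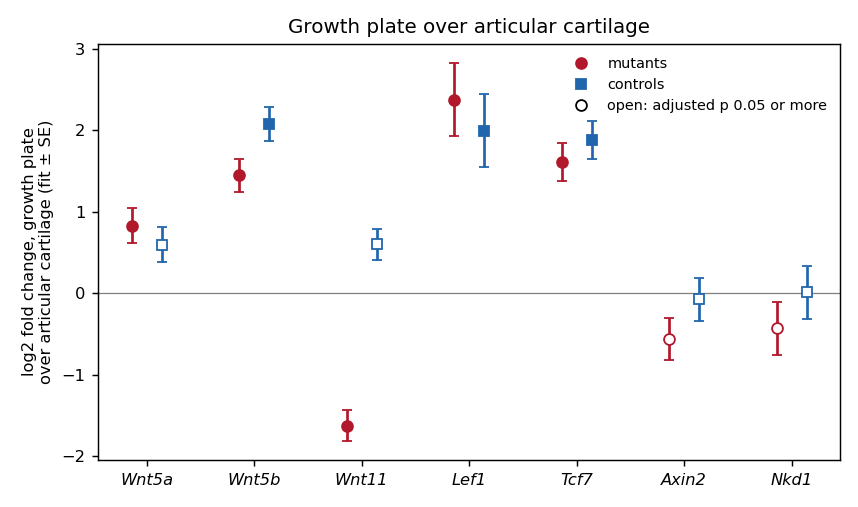
Fitted log2 fold change of growth plate over articular cartilage with its standard error for each gene, in mutants (red circles) and controls (blue squares); open symbols did not pass an adjusted p of 0.05. Wnt5b, Lef1 and Tcf7 lie between 1.45 and 2.37 in both genotypes, and Wnt11 is at −1.62 in mutants and 0.60 in controls.

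Over the 7 genes the calls were as follows. In growth plate 2 of 7 fell in mutants and 0 rose, against 2.82 percent of all genes lower, 7.92 percent higher and 10.7 percent in all. The split over all genes, 1165 higher and 415 lower, became 726 and 741 after median ratio scaling and 606 and 679 after quantile normalisation, and Wnt5b and Wnt11 were called lower under both. In articular cartilage 0 of 7 passed by limma, with Wnt11 and Tcf7 at an unadjusted p of 0.0139 and 0.0167, against 0.353 percent of all genes called, 0.156 percent higher and 0.197 percent lower. Between tissues in mutants 4 of 7 were higher in growth plate and 1, Wnt11, was lower, against 4.3 percent of all genes higher, 5.91 percent lower and 10.2 percent in all. In controls 3 of 7 were higher and 0 lower, against 4.26 percent higher, 8.63 percent lower and 12.9 percent in all. For the difference between the tissues' mutant effects 1 of 7 was lower and 0 higher, against 0.136 percent and 0.0476 percent of all genes.

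Groups that did not overlap are common at 3 libraries each, and the members' counts are read against that share. Mutants and controls did not overlap in growth plate for 2 of 7 genes, both lower in mutants, beside 23.9 percent of all genes, 4.96 percent lower and 19 percent higher. In articular cartilage this held for 1 of 7, Wnt11, which was higher in mutants, beside 14.5 percent of all genes, 11.4 percent higher and 3.09 percent lower. The tissues did not overlap in mutants for 5 of 7 genes, 4 higher in growth plate and 1 lower, beside 21.3 percent of all genes, 8.67 percent higher and 12.6 percent lower. In controls 5 of 7 did not overlap, all higher in growth plate, beside 28.3 percent of all genes, 9.31 percent higher and 19 percent lower. The median of the 7 was −0.40 in growth plate and −0.02 in articular cartilage for mutants against controls, beside 0.20 and 0.13 over all genes.

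The mutants at day 14 and day 7, and the double and single mutants, each had 1 library per tissue and were compared by description only. For the Sox9 allele alone in growth plate, the log2 ratio of mutant to control at day 14 minus that at day 7 was −1.45 for Axin2, −1.44 for Lef1 and −0.93 for Tcf7, and 1.13 for Nkd1. Wnt5b stood at −0.18 at day 14 and −1.18 at day 7. Axin2, Lef1 and Tcf7 were thus above their control at day 7 (0.55, 1.37 and 0.68). At day 14 Axin2 and Tcf7 were below it (−0.90 and −0.25) and Lef1 was nearly level with it (−0.07). Levels over all genes also differed between these libraries. The median ratio scaling factor in growth plate was 1.10 in the mutant and 0.835 in the control at day 7, and 0.893 and 0.898 at day 14. Its part in these differences was not tested. Wnt11 was below its control at both days, by −1.73 at day 14 and −1.39 at day 7. The Sox8 Sox9 mutant differed from the Sox9 mutant of day 14 by 0.89 for Tcf7, −0.81 for Wnt5b, −0.74 for Lef1 and −0.11 for Wnt11, each as a difference of log2 ratios to its own control. In articular cartilage the same 2 differences lay between −0.63 and 0.63 for all 7 genes.

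Among the other ligands Wnt4 had the highest mean RPKM in growth plate and Wnt10b rose in growth plate mutants. Of 19 mouse Wnt genes sought, 7 were listed: the 3 above and Wnt4, Wnt9a, Wnt10b and Wnt16. Wnt4, a ligand of prehypertrophic chondrocytes, was 35.6, 37.2 and 14.4 in growth plate mutants against 22.2, 20.9 and 17.4 in controls, and the change did not pass (0.40 ± 0.26, limma adjusted p = 0.352). Wnt10b, a canonical ligand, was 11.01, 5.29 and 5.05 in growth plate mutants, against 1, 1 and 2.06 in controls, without overlap. It rose by 1.74 ± 0.32 (limma adjusted p = 0.00886). Neutrophil markers (7 of 7 listed) summed to 360 to 1365 in growth plate mutants against 34.6 to 54.6 in controls, and the part of marrow cells in this rise was not tested. Wnt9a and Wnt16, which are both known from joint tissue, were at 1 in all 6 growth plate libraries, and Wnt16 reached 8.07 in the library labelled articular Sox8 Sox9 mutant.

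**Figure D4:**
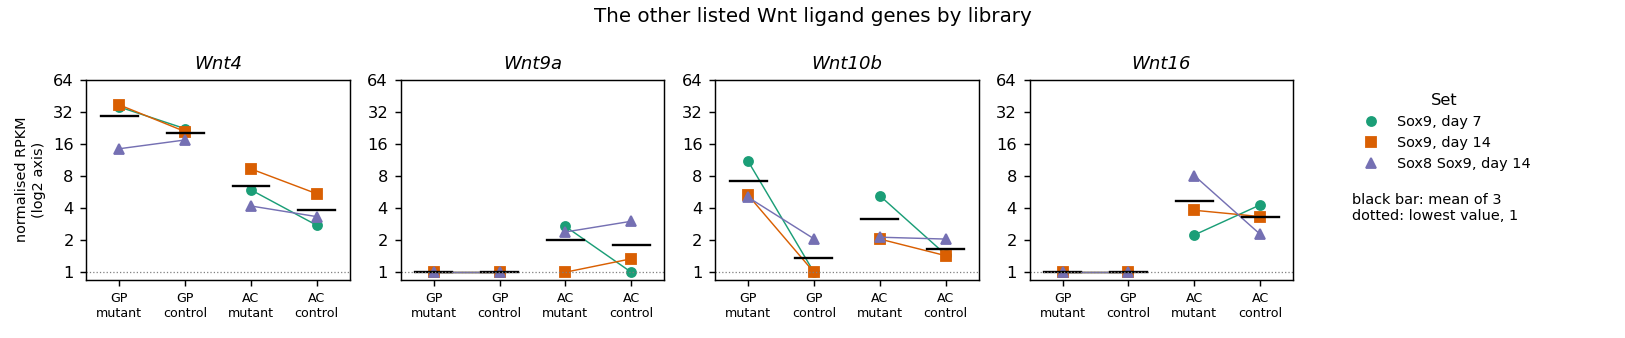
Normalised RPKM (log2 axis) of the 4 other listed Wnt ligand genes by library, with groups, symbols and lines as in the plot of the 7 genes. Wnt10b lies at 5.05 to 11.01 in growth plate mutants against 1 to 2.06 in growth plate controls, and Wnt9a and Wnt16 are at 1 throughout growth plate.

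The rest of the pathway, taken from lists chosen with earlier results of these data known, changed in few genes besides the secreted antagonists. The counts for growth plate mutants stand beside 7.92 percent of all genes higher and 2.82 percent lower. There 2 of 17 receptors and co-receptors rose, a share close to that of all genes: Fzd5, a Frizzled receptor, to 12.4 ± 5.22 against 3.22 ± 1.35 in controls (1.66 ± 0.24), and Lrp5, a canonical co-receptor (1.45 ± 0.24). Of 7 R-spondins and R-spondin receptors, which amplify Wnt signals, Rspo3 fell to 5.52 ± 0.98 in mutants against 22.4 ± 6.91 in controls (−1.80 ± 0.25, limma adjusted p = 0.00288). The largest change in this list, −2.72 for Rspo4, did not pass. Rspo4 was 57.2, 22.1 and 1 in growth plate mutants, against 125, 75.2 and 79.8 in controls. None of 18 intracellular components passed by limma (3 at an unadjusted p under 0.05), and after median ratio scaling 1 was lower; none of 8 TCF/LEF and Groucho genes passed (2 at an unadjusted p under 0.05). Of 11 target genes, 4 of them members described above, Tnfrsf19 (1.52 ± 0.23) and Bambi (1.10 ± 0.28) rose and none fell; Bambi lost its call under both scalings, where 1 target gene was higher and 1 lower. Of 10 secreted antagonists 5 rose and 2 fell (Frzb and Sfrp5); under either scaling 3 rose and 2 fell, with Dkk3 and Sfrp4 no longer called. Dkk1, an inhibitor of the canonical co-receptors, rose by 1.72 ± 0.39 and Sost, the osteocyte inhibitor sclerostin, by 1.81 ± 0.35, beside the higher osteoblast and osteocyte sums given above, whose part was not tested. Medians for mutants against controls in growth plate were 0.00 for ligands, receptors, R-spondin genes and target genes, beside 0.20 over all genes. For the first 3 of these lists the median fell on genes at 1 in all 6 growth plate libraries, whose change is 0 by construction. These were Wnt9a and Wnt16, Fzd10, and Rspo1 and Rspo2, so those medians do not measure a lack of change. The median was 0.14 for TCF/LEF and Groucho genes (−0.10 after quantile normalisation) and 1.31 for antagonists.

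In articular mutants none of the ligands, receptors, R-spondin genes, intracellular components, TCF/LEF genes or target genes passed by limma, with 2, 4, 1, 0, 1 and 2 of them in that order at an unadjusted p under 0.05. There 2 of 10 antagonists fell, Sfrp5 by −3.38 ± 0.40 and Frzb by −1.73 ± 0.24, beside 0.197 percent of all genes lower. Sfrp5 lost its call in 3 of 12 fits without 1 library (limma adjusted p 0.000372 to 0.103 over all alternatives). Frzb lost it in 5 of those 12 and in 4 of 11 other settings, among them the fit without the articular Sox8 Sox9 pair (0.0162 to 0.181). Among controls, growth plate exceeded articular cartilage in 6 of 11 target genes: Notum, Ccnd1, Myc and Apcdd1 beside Lef1 and Tcf7, with Bambi lower, against 4.26 percent of all genes higher and 8.63 percent lower. Ccnd1 and Tcf7 were called in every fit without 1 library, whereas Notum and Myc lost their call in 4 of 12, Bambi in 8 and Apcdd1 in 10; Myc and Apcdd1 also lost it without the articular Sox8 Sox9 pair. Notum, a secreted enzyme that inactivates Wnt proteins, was 12.2 ± 2.32 in growth plate controls and 1.99 ± 1.41 in articular controls (2.23 ± 0.49, limma adjusted p = 0.0236), and Ccnd1, the cyclin D1 gene, was 17.8 ± 0.675 in growth plate controls and 3.21 ± 0.497 in articular controls (2.17 ± 0.24, limma adjusted p = 0.000713). The beta-catenin gene Ctnnb1 was higher in growth plate too, by 1.11 ± 0.22 in mutants and by 0.92 ± 0.22 in controls; without the articular Sox8 Sox9 pair neither passed, and fits without 1 library lost the call in 3 of 12 for mutants and 8 of 12 for controls (limma adjusted p up to 0.0961 and 0.137 over all alternatives). None of 10 antagonists was called higher in growth plate in either genotype. In controls 6 were lower, beside 8.63 percent of all genes, with Sost at −2.87 ± 0.33 and Wif1 at −2.81 ± 0.29. Among mutants 3 were lower, Frzb, Dkk3 and Sfrp4, beside 5.91 percent of all genes lower and 4.3 percent higher. The osteoblast and osteocyte marker sum was higher in growth plate controls than in articular controls, at 5803 to 11114 against 1673 to 3746. Of its 10 markers 5 were called higher and 0 lower, beside 4.26 percent of all genes higher and 8.63 percent lower. The markers did not all go one way. Mepe was 26.1 to 44.5 in growth plate controls against 61.9 to 152 in articular controls. The part of bone cells in these tissue differences was not tested.

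**Figure D5:**
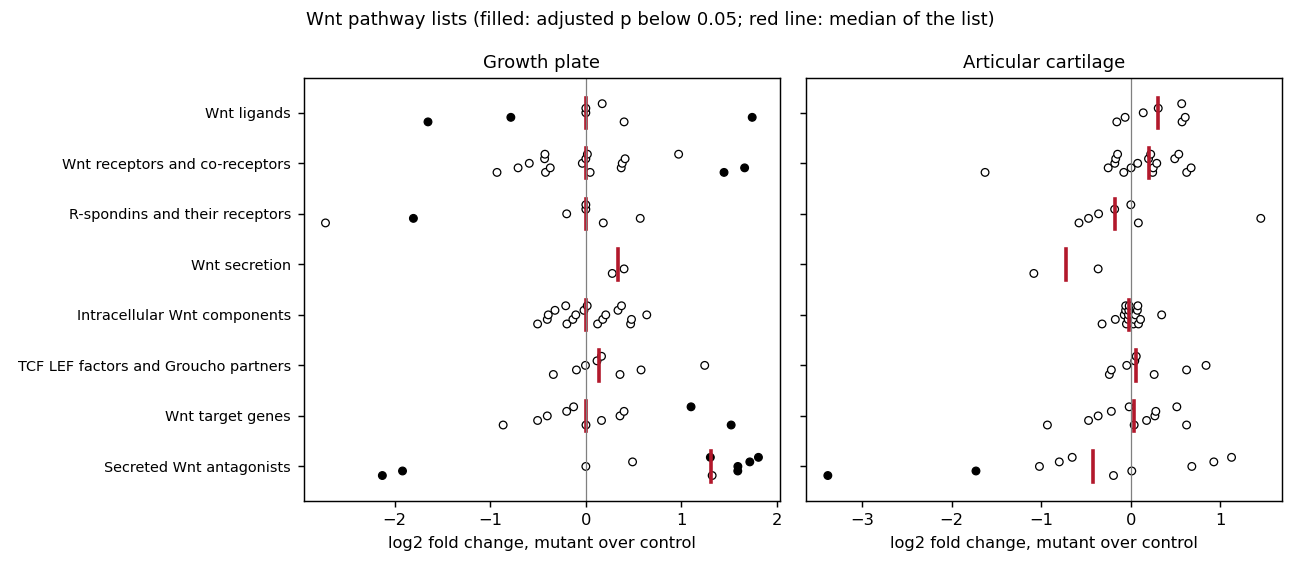
Log2 fold change of mutant over control for each listed gene of 8 Wnt pathway lists in growth plate (left) and articular cartilage (right); points are genes, filled where the adjusted p is below 0.05, and red lines are list medians. Secreted antagonists hold called genes in both tissues, 5 higher and 2 lower in growth plate and 2 lower in articular cartilage.

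The genes most like each member were sought over the 12 libraries by Pearson's r of the log2 values, among genes with a mean of at least 10. The 12 libraries share tissue, set and scaling, so r describes likeness of level only. Wnt5b was most like Smpd3, which encodes a sphingomyelinase of skeletal tissue (r = 0.97), then Car12 (0.95) and Slc13a5 (0.94). Wnt11 was most like Fbln7, a fibulin gene (0.95), then Aldh1a3, which makes retinoic acid (0.92). Lef1 was closest to the transcription factor gene Runx3 (0.93), Calml3 (0.93) and Prss50 (0.92), and Tcf7 to Unc5b, a netrin receptor gene (0.97), Actn1 (0.96) and Bmp1 (0.96). Wnt5a was closest to Sh3pxd2a (0.95), Unc5b (0.95) and Tanc1 (0.95). Axin2 was most like Bcl9l, a beta-catenin partner gene (0.93), then Rgma (0.88) and Nfat5 (0.87), while Nkd1 had no gene above 0.78, the value for Mybbp1a, followed by Mir140 (0.74) and Atp10a (0.74). Among the 7 themselves, Wnt5a, Tcf7, Lef1 and Wnt5b had r between 0.72 and 0.89 with each other, and Wnt11 had r of −0.13 to −0.46 with those 4.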

How the data were processed

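Per the file headers, the authors deposited 1 column per library of normalised RPKM (NRPKM); the sources used here give neither its normalisation nor the aligner, counter or annotation. The submitters' processing notes name mm10. Per the labels' protocols, regions were cut by laser and libraries made with a stranded low-input kit. Strand use in counting is not stated, and each of the 7 genes overlaps another annotated gene (for Wnt5b the listed gene Fbxl14). No label ties a region to an animal, so p-values measure the spread between these libraries. Where regions share an animal, those of mutants against controls can be too small. The tissue comparisons carry a block per genotype and day, which takes up what such regions share.

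Log2(value + 1) was fitted over 14712 genes and 12 libraries with limma 3.58.1 (robust, trend; statmod 1.5.0; R 4.3.3), Benjamini-Hochberg adjusted and called below 0.05. Mutant effects used a block per set; tissue contrasts and their difference used a block per genotype and day. Alternatives were other added values, a filter on low values, both scalings, other blocks and left-out libraries. Named were the members, up to 2 called genes per list, direction and comparison with the largest change (all where 5 or fewer were counted), and the 3 likest genes, of which 1 is not reported here; Wnt9a, Myc, Apcdd1, the single markers and the inner promoter windows were chosen after values were seen. Members and lists were chosen with earlier results of these data known. Positions are from GENCODE M21, matched for 14293 gene IDs. The fits were tested on simulated data.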

Additional observations from a re-analysis of the deposited data

Results flagged for a closer look

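The mutant effect on Wnt11 was lower in growth plate than in articular cartilage by a test of that difference: −2.22 on the log2(value + 1) scale (limma, Benjamini-Hochberg adjusted p = 0.0280). Wnt11 was lower than its control in 3 of 3 growth plate pairs and higher in 3 of 3 articular pairs. The call was lost in 12 of 12 fits without 1 library (−2.34 to −2.14, adjusted p 0.0882 to 0.147) and without the articular Sox8 Sox9 pair (−2.32, adjusted p = 0.267).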

How the results depend on the processing

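Over all genes the number of calls moved by more than 1.5 times under some settings. For mutants against controls in articular cartilage, 52 calls became 23 without the robust and trended prior, 24 in the Sox9 sets alone, 29 with no set block, 12 with a block per matched pair and 2 in the 6 articular libraries alone; without 1 library they ranged from 6 to 101. In growth plate 1580 became 274 in the Sox9 sets alone, 945 with no set block and 0 in the 6 growth plate libraries alone (limma; 2755 genes at an unadjusted p under 0.05), and 658 to 1927 without 1 library. Between tissues 1501 calls in mutants became 759 in the Sox9 sets alone and 772 without the articular Sox8 Sox9 pair (796 to 1362 without 1 library), and 1896 in controls became 1058 and 1081 (894 to 2068). For the difference between the tissues' mutant effects, 27 calls became 1 without the robust and trended prior and 0 both in the Sox9 sets alone and without the articular Sox8 Sox9 pair (limma; 1270 and 1290 genes at an unadjusted p under 0.05), and 0 to 4 without 1 library.

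The member values that changed sign were all uncalled, as reported and under the alternative. Quantile normalisation gave −0.17 for Nkd1 in articular cartilage, −0.025 for Lef1 and −0.13 for Wnt5a in growth plate, 0.090 for Axin2 between tissues in controls and −0.056 for Wnt5a in the difference of effects. Median ratio scaling gave −0.068 for Nkd1 in articular cartilage, −0.035 for Lef1 in growth plate and 0.032 for Axin2 between control tissues. Nkd1 in articular cartilage was −0.11 in the Sox9 sets alone and without the articular Sox8 Sox9 pair, and −0.010 between control tissues with 0.5 added. Without 1 library, Axin2, Lef1 and Nkd1 ranged in articular cartilage from −0.12 to 0.13, −0.58 to 0.084 and −0.26 to 0.29. Lef1 ranged in growth plate from −0.53 to 0.80. Between control tissues Axin2 ranged from −0.23 to 0.24 and Nkd1 from −0.29 to 0.34. In the difference of effects Lef1 ranged from −0.30 to 1.10 and Tcf7 from −0.48 to 0.073. The cause was not tested.

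Libraries of 1 set deviated from their group means together, with correlations of 0.09 to 0.42. A block per matched pair left Wnt11 in growth plate called and ended the call of Wnt5b (adjusted p = 0.0710). Low values limit Wnt5a, Nkd1 and articular Lef1, since the lowest listed value is 1 and depth is unknown.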
